A study of Mus musculus with 12 samples.

Results

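The Id genes and the core of bone morphogenetic protein (BMP) signaling were followed in the developing mouse cortex through 10 genes, namely the ligands Bmp4 and Bmp7, the type I receptors Bmpr1a and Bmpr1b, the signal transducers Smad1 and Smad5, and Id1, Id2, Id3 and Id4. Their probes were taken by gene symbol, with no threshold on a measured value. The array carries 24 probes annotated to these 10 genes, of 45281 probes in all. Of the 24 probes, 19 had a detection p-value under 0.01 on some array and were tested, of 19652 such probes in the whole series, and 5 were detected on no array. The 5 undetected probes belong to Bmp4 (1), Bmp7 (1), Bmpr1b (2) and Smad1 (1), so each of the 10 genes kept at least 1 tested probe.

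Total RNA of embryonic mouse cortex was hybridized to 12 BeadChip arrays (Illumina mouse WG-6 v2.0), with 4 for each of the embryonic days E12.5, E15.5 and E18.5. The labels name no genotype or treatment, and the methods give the C57BL/6J background for the wild-type mice of the study. The design speaks of 4 embryos per stage, but no source used here says whether an array held 1 embryo or a pool, so p-values reflect only the spread among the arrays, whose number limits the precision. The question was how transcripts change as the cortex develops.

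BMPs are secreted ligands of the TGF-beta superfamily. They bind a complex of type I and type II receptor kinases, and the type I receptor phosphorylates SMAD1, SMAD5 and SMAD9, which enter the nucleus with SMAD4. The Id genes are among the best-known direct targets of these SMADs. Id proteins have a helix-loop-helix domain but no DNA-binding region, so they take E proteins away from the proneural factors and hold back differentiation. In the embryonic forebrain the roof plate and cortical hem are the classic sources of BMPs, which pattern the dorsal midline and induce the choroid plexus.

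The promoter windows of Id2, Id3 and Id4 are shown because these SMAD targets moved in opposite directions in the data below. Each window holds the 250 bases before the annotated start, from RefSeq on build GRCm38.p6. Capitals mark GGCGCC and CAGAC (a GC-rich and a short SMAD-binding motif, CAGAC searched on both strands, GGCGCC being its own reverse complement) and CANNTG, the E-box bound by basic helix-loop-helix (bHLH) dimers. The windows are chr4:136143572-136143821 on the plus strand for Id3, chr12:25096093-25096342 on the minus strand for Id2 and chr13:48260866-48261115 on the plus strand for Id4.
Id3: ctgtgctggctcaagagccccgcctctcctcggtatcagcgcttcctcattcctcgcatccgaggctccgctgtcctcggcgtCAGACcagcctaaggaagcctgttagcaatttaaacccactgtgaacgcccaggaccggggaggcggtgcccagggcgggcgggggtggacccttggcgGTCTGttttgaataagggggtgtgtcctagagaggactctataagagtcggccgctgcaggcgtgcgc
Id2: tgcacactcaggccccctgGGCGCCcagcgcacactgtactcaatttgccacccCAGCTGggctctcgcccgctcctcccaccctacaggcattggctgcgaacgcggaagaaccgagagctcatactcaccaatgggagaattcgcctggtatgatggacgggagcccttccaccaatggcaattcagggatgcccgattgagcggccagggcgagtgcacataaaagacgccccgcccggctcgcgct
Id4: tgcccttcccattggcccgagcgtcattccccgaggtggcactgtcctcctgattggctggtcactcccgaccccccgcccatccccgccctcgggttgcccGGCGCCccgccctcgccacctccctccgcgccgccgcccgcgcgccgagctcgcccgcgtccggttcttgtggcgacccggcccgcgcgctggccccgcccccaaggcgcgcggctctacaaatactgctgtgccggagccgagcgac
In the Id3 window CAGAC matched 2 times, with the first base 167 and 68 bases before the start. Id2 had 1 GGCGCC at 231 bases and 1 CANNTG at 196 bases before the start, and Id4 had 1 GGCGCC at 148 bases. No motif overlapped another. Among 32851 windows of the same length, 9.59% held GGCGCC, 42.2% held CAGAC and 66.2% held CANNTG. Such a match describes letters in a window and is no binding site. The G and C share was 62.8% for Id3, 62.8% for Id2 and 75.6% for Id4.

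Levels are given on the log2 scale after background correction and quantile normalization, and they are not compared between genes, because probes differ in brightness. The median signal per array was 86.1 to 88.4 (E12.5), 88.8 to 93.3 (E15.5) and 94.97 to 99.3 (E18.5), and 15227 to 17472 probes were detected per array. A pair of arrays stood apart. On E12.5 replicate 4, the 2825 probes that changed at least 2-fold between the other E12.5 arrays and E15.5 lay a median of 39.8% of the way toward E15.5 (quartiles 26.9% and 52.1%). E15.5 replicate 4 carried the choroid plexus transcript Ttr at 13.42, where the lowest of its stage was 7.02. Neuronal and progenitor markers were detected at every stage, and 8 of 8 apical progenitor markers and 6 of 8 neuronal markers were tested. Summed over their probes on the linear scale, the progenitor markers gave 11029 to 13311 for E12.5, 8047 to 8651 for E15.5 and 2919 to 3353 for E18.5. The neuronal markers gave 7391 to 15165 on E12.5 arrays, 21942 to 25068 on E15.5 arrays and 40967 to 42663 on E18.5 arrays.

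Most of the 10 genes were lower later in development, and more of them passed the test before E15.5 than after it. At E15.5 against E12.5, 6 of the 10 genes were lower (Bmp4, Bmp7, Bmpr1a, Bmpr1b, Id3 and Id4) and 1 was higher (Id2) at an adjusted p under 0.01 in limma, beside 21.6% of all tested probes lower and 21.7% higher. At least 2-fold, 3 were lower and 1 was higher, beside 5.29% and 6.76% of tested probes. Values of the stages did not overlap for 7 of the 10 genes, beside 24.3% of tested probes below and 25.1% above without overlap. At E18.5 against E15.5, 2 genes (Smad5 and Id4) were lower and 0 higher, beside 21.3% and 19.9% of tested probes. At least 2-fold these were 1 and 0, beside 4.87% and 6.98%, and 3 genes did not overlap, beside 28.2% below and 25.2% above. Over the whole period 7 were lower and 1 higher, beside 33.3% and 30.0%, of which at least 2-fold 5 and 1, beside 13.0% and 15.3%, and 8 genes did not overlap, beside 34.6% below and 30.8% above. The median log2 fold change of the 10 genes was -0.74 at E15.5 versus E12.5, -0.22 at E18.5 versus E15.5 and -0.99 at E18.5 versus E12.5, where the medians over 10662 tested genes were -0.0054, -0.059 and -0.069. Bmp4, detected at E12.5 alone, entered the test through that stage, and the counts against E12.5 include it. With Bmp4 at its bound the medians were the same. A gene is represented here by its brightest tested probe. The genes and the lists below were chosen with earlier results of these data known. Counts set beside shares, here and below, are therefore a description and no evidence of an excess.

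**Figure D1:**
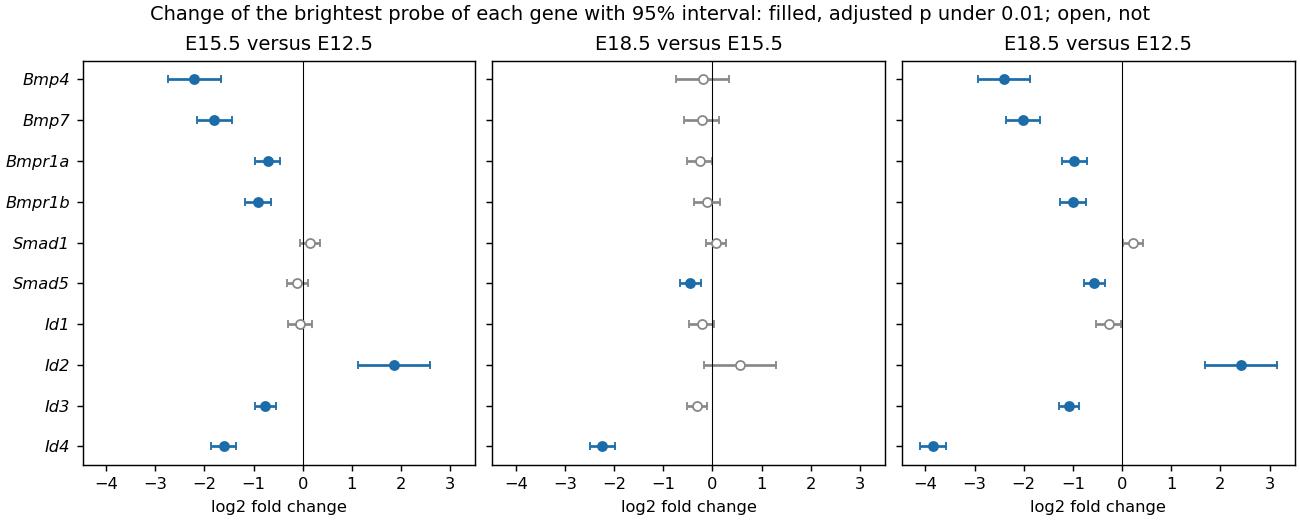
Log2 fold change of the brightest tested probe of each of the 10 genes in the 3 comparisons of stages, with points for the estimate, bars for the 95% interval, and filled symbols for an adjusted p under 0.01 in limma. In the first interval the filled symbols are 6 genes to the left and Id2 to the right, in the second Smad5 and Id4 alone are filled, and Bmp4 was undetected at E15.5 and E18.5, so its points are not bounds.

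The 2 ligands were lower at both later stages, and neither passed the test after E15.5. Bmp4, which patterns the dorsal midline, had log2 levels of 7.16, 7.18, 7.45 and 5.97 on the E12.5 arrays, 4.80, 4.53, 4.52 and 5.09 at E15.5, and 4.52, 4.49, 4.59 and 4.54 at E18.5. Each E12.5 value lay above each later one, E12.5 replicate 4 was the lowest of its stage, and E15.5 replicate 4 was the highest of its own. The probe was detected on 4 of 4 arrays at E12.5 and on none later, so it entered the test through E12.5 and the folds are bounds, the E12.5 mean being set against the higher of the detection floor and the level measured on each later array. Bmp4 was at least 2.21-fold lower at E15.5 relative to E12.5 (means 4.73 ± 0.27 and 6.94 ± 0.66, SD, n = 4 each, adjusted p = 1.03e-05). At E18.5 it was at least 2.51-fold lower than at E12.5 (mean 4.54 ± 0.04 at E18.5, adjusted p = 1.01e-06). In bulk tissue, fewer cells of a type and less RNA per cell cannot be told apart.

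Bmp7, a ligand of the same pathway, read 7.75, 7.74, 7.89 and 7.32 at E12.5, 5.89, 5.64, 5.67 and 6.30 at E15.5, and 5.77, 5.79, 5.34 and 5.74 at E18.5. The E12.5 arrays stood above all later ones, E15.5 replicate 4 was again the highest of its stage, and the values of E15.5 and E18.5 overlapped. The probe was detected on 4 arrays at E12.5, 1 at E15.5 and 3 at E18.5. Bmp7 fell by 1.80 on the log2 scale at E15.5 against E12.5 (SE 0.16, 3.48-fold, adjusted p = 2.93e-06), and at E18.5 the change from E12.5 was -2.01 (SE 0.16, 4.04-fold, adjusted p = 9.83e-08). Since most E15.5 arrays were below detection, the size of the fall to E15.5 rests partly on background. At E18.5 versus E15.5 the log2 fold change was -0.21 (95% interval -0.57 to 0.14, adjusted p = 0.293).

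The test of a different change in the 2 intervals called 2 of the 10 genes, Bmp4 and Bmp7, beside 17.8% of tested probes in either direction. Bmp4 was below detection on every array from E15.5 on, so its change after E15.5 was not measured and nothing is read from its call. For Bmp7 the change after E15.5 minus the change before it was 1.59 (SE 0.28, adjusted p = 0.00106), with later levels close to the detection floor. With replicate 4 of E12.5 and of E15.5 left out, Bmp7 changed by -2.06 (SE 0.13) at E15.5 against E12.5. The probe was detected on none of the E15.5 arrays then left, so that value is no measured size.

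Markers of the choroid plexus and dorsal midline set replicate 4 apart within E12.5 and within E15.5, in the same direction as these ligands. The 8 markers of that list, all tested, summed to 18329, 16367, 19936 and 7481 on the E12.5 arrays, and to 765, 666, 684 and 12127 on the E15.5 arrays. At E18.5 the sum was 241 to 312. On the linear scale such a sum follows its brightest members, and most of it on E15.5 replicate 4 was the choroid plexus transcript Ttr. On that array 7 of the 8 markers were detected, and 4 on each of the other E15.5 arrays. Of the 8, 7 were lower at E15.5 relative to E12.5, beside 21.6% of all tested genes. On E12.5 replicate 4, where the sum was lowest of its stage, Bmp4 and Bmp7 were lowest too, and on E15.5 replicate 4, where it was highest, they were highest, although Bmp4 stayed below detection there. The match did not hold across stages. E15.5 replicate 4 had a higher sum than E12.5 replicate 4, yet Bmp7 read 6.30 on the former and 7.32 on the latter. Among 6 meningeal markers, Col1a1, Col1a2, Col3a1, Lum and Foxc1 were detected on no array, and the other, Dcn, gave 239 to 299 on E12.5 arrays, 302 to 375 on E15.5 arrays and 196 to 273 on E18.5 arrays. The part of these cells in the ligand values was not tested.

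**Figure D2:**
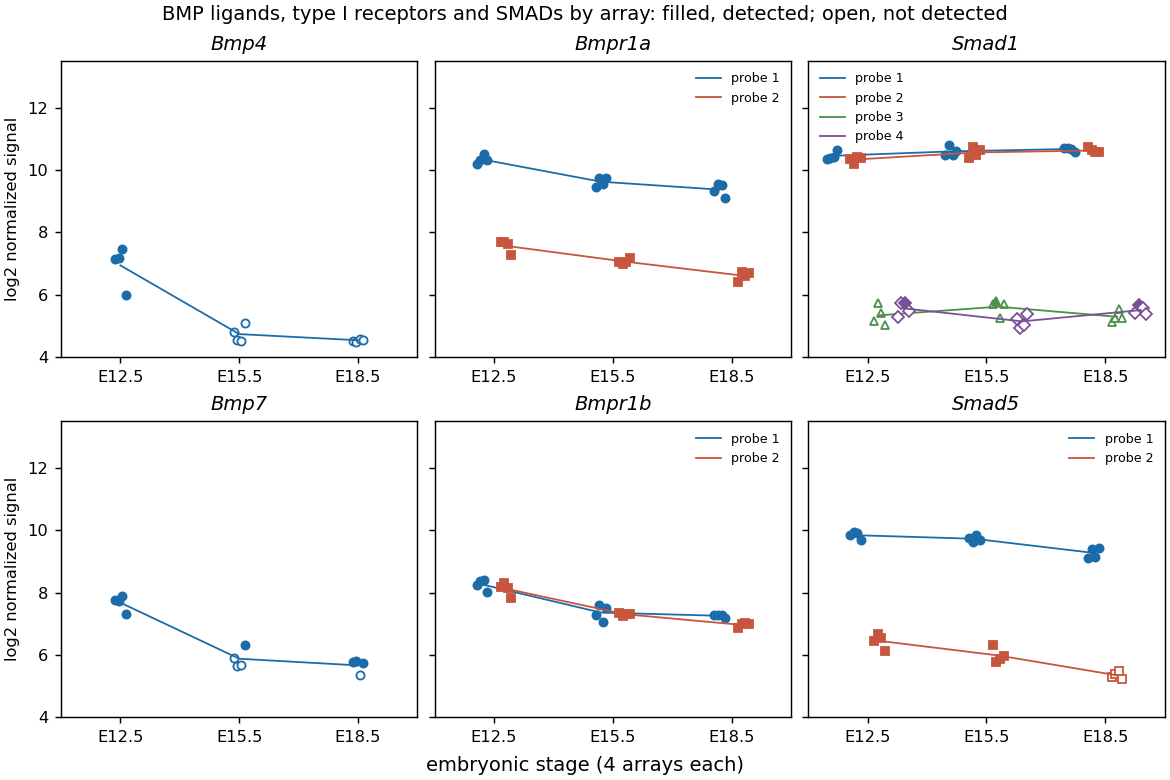
Log2 normalized signal of each tested probe of Bmp4, Bmp7, Bmpr1a, Bmpr1b, Smad1 and Smad5 on the 12 arrays, by stage, with filled symbols where the probe was detected, open symbols where it was not, and lines through stage means. Bmp4 and Bmp7 drop between E12.5 and E15.5, both receptors follow by a smaller step, and the 2 bright Smad1 probes lie between 10.18 and 10.80 throughout.

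Both type I receptors, the serine/threonine kinases that phosphorylate the BMP SMADs, were lower from E15.5 on, by less than the ligands. Bmpr1a read 10.21, 10.31, 10.53 and 10.32 at E12.5, 9.47, 9.74, 9.55 and 9.75 at E15.5, and 9.32, 9.56, 9.53 and 9.09 at E18.5. E12.5 lay wholly above the later stages, which overlapped. Its log2 fold change was -0.72 (SE 0.12, 1.64-fold, adjusted p = 0.000175) at E15.5 versus E12.5 and -0.97 (SE 0.12, 1.96-fold, adjusted p = 4.82e-06) at E18.5 versus E12.5. The second Bmpr1a probe, 6.41 to 6.74 at E18.5 and 7.27 to 7.69 at E12.5, gave -0.96 (SE 0.11) over the whole period. That probe also passed at E18.5 versus E15.5 (-0.46, adjusted p = 0.00289), where the brighter probe did not (-0.26, adjusted p = 0.0826).

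Bmpr1b, the other type I receptor, read 8.23, 8.37, 8.41 and 8.03 at E12.5, 7.27, 7.61, 7.04 and 7.50 at E15.5, and 7.29, 7.27, 7.27 and 7.19 at E18.5. Again no later array reached the E12.5 range, and E18.5 lay inside the range of E15.5. The log2 fold change was -0.90 (SE 0.12, 1.87-fold, adjusted p = 3.76e-05) at E15.5 versus E12.5, and -0.10 (95% interval -0.37 to 0.16, adjusted p = 0.504) at E18.5 versus E15.5. Its second detected probe fell by 0.82 and by 0.35 in these intervals (adjusted p = 1.66e-05 and 0.00881), so both receptors had 1 of 2 probes past the threshold after E15.5. The difference between the intervals for the brighter Bmpr1b probe was 0.80 (SE 0.21, adjusted p = 0.0116), short of the threshold. It passed in 10 of 23 other settings, among them without E12.5 replicate 4 (0.88, adjusted p = 0.00421) and with the authors' values (0.62, adjusted p = 0.00662). For the second probe the difference was 0.47 (SE 0.17, adjusted p = 0.0538).

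Smad1 changed little, and Smad5 was lower at E18.5 than at both earlier stages. Smad1 read 10.35, 10.40, 10.43 and 10.65 at E12.5, 10.50, 10.80, 10.48 and 10.62 at E15.5, and 10.72, 10.72, 10.69 and 10.58 at E18.5, and the 3 stages overlapped. Its log2 fold change at E18.5 versus E12.5 was 0.22 (95% interval 0.02 to 0.43, adjusted p = 0.0506). A second bright probe gave 0.29 (SE 0.09, adjusted p = 0.0133), with every E18.5 array above every E12.5 array. Under median scaling, cyclic loess or array weights the brightest probe passed, at 0.37, 0.33 and 0.29 (adjusted p = 0.00898, 0.00685 and 0.0084). Median scaling also moved the median of all tested probes in this comparison to 0.13, where quantile normalization left it at -0.075. The remaining tested Smad1 probes were at the detection limit, detected on 2 arrays and on 1 array of 12, and passed no comparison.

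Smad5, the partner of Smad1 downstream of the type I receptors, read 9.84, 9.94, 9.90 and 9.68 at E12.5, 9.74, 9.62, 9.85 and 9.70 at E15.5, and 9.11, 9.39, 9.15 and 9.45 at E18.5. E18.5 lay below both earlier stages, which overlapped. Its brighter probe passed after E15.5 (log2 fold change -0.45, SE 0.10, 1.37-fold, adjusted p = 0.00168) and not before (-0.12, 95% interval -0.33 to 0.10, adjusted p = 0.341). At E18.5 versus E12.5 that probe gave -0.57 (SE 0.10, 1.48-fold, adjusted p = 0.00015). The difference between its intervals was -0.34 (SE 0.17, adjusted p = 0.158), so a change of pace was not shown. Under median scaling its change at E18.5 versus E15.5 was -0.39 with adjusted p = 0.0191, and that over the whole period was -0.38 with adjusted p = 0.0144, and neither passed. A dimmer Smad5 probe, detected on all arrays of E12.5 and E15.5 and none of E18.5, passed before E15.5 too (-0.47, SE 0.13, adjusted p = 0.00847), though those stages overlapped. It was at least 1.79-fold lower at E18.5 relative to E12.5 (means 5.34 ± 0.10 and 6.45 ± 0.22, adjusted p = 4.32e-06).

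The 4 Id genes went separate ways: Id4 passed as lower in both intervals, Id3 passed as lower in the first, Id2 rose, and Id1 passed no comparison. Id4, which holds cortical progenitors in division and whose loss in mice gives a small brain, read 12.34, 12.51, 12.71 and 12.34 at E12.5. It read 11.10, 10.78, 10.78 and 10.79 at E15.5, and 8.48, 8.85, 8.71 and 8.45 at E18.5. The 3 stages lay in separate ranges, more than 1 log2 unit apart. Id4 fell by 1.61 at E15.5 against E12.5 (SE 0.12, 3.06-fold, adjusted p = 1.04e-06) and by 2.24 at E18.5 against E15.5 (SE 0.12, 4.72-fold, adjusted p = 9.61e-09). At E18.5 against E12.5 it was 14.4-fold lower (log2 fold change -3.85, SE 0.12, adjusted p = 3.84e-11). The difference between the intervals was -0.63 (SE 0.21, adjusted p = 0.0377), past 0.05 but not 0.01.

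A second Id4 probe read 11.38, 11.23, 11.19 and 10.77 at E12.5, 10.03, 9.49, 9.53 and 9.61 at E15.5, and 7.18, 7.52, 7.60 and 7.60 at E18.5. Its stages did not overlap either, though E12.5 and E15.5 lay less than 1 log2 unit apart. The log2 fold changes were -1.48 (SE 0.15) and -2.19 (SE 0.15) in the 2 intervals. The apical progenitor markers moved in the same direction as Id4, and 7 of the 8 were lower at E18.5 relative to E12.5, beside 34.4% of all tested genes, with a median log2 fold change of -1.96 over the list. Their part in the fall of Id4 was not tested.

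Id3, which acts with Id1 in the vessels and progenitors of the embryonic brain, read 8.29, 8.35, 8.27 and 8.08 at E12.5. Its levels were 7.41, 7.43, 7.59 and 7.54 at E15.5, and 7.40, 7.07, 7.15 and 7.06 at E18.5. The stages did not overlap, though E18.5 replicate 1 lay just below the lowest E15.5 array. Id3 fell by 0.76 at E15.5 against E12.5 (SE 0.10, 1.69-fold, adjusted p = 2.34e-05). The change at E18.5 versus E15.5, -0.32 (SE 0.10, adjusted p = 0.0125), missed the threshold, and met it without E12.5 replicate 4 (adjusted p = 0.00794) or without E18.5 replicate 1 (adjusted p = 0.00343). The difference between its intervals was 0.44 (SE 0.17, adjusted p = 0.0618), so a fall confined to the first was not shown. Over the whole period Id3 was 2.11-fold lower at E18.5 (log2 fold change -1.08, SE 0.10, adjusted p = 2.33e-07).

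Id1, a classic BMP target, read 8.11, 8.20, 7.92 and 7.73 at E12.5, 7.87, 8.04, 7.85 and 7.97 at E15.5, and 7.67, 7.56, 7.68 and 7.96 at E18.5. All stages overlapped. Its log2 fold change was -0.05 (95% interval -0.30 to 0.20, adjusted p = 0.716) at E15.5 versus E12.5 and -0.27 (95% interval -0.52 to -0.02, adjusted p = 0.0484) at E18.5 versus E12.5. The comparison over the whole period passed without E12.5 replicate 4 (-0.36, adjusted p = 0.00953) and with array weights (-0.41, adjusted p = 0.00242). Endothelial cells also express Id1 and Id3, and their 8 tested markers of 9 summed to 871 to 1093 on E12.5 arrays, 1831 to 1999 on E15.5 arrays and 2658 to 2986 on E18.5 arrays. The part of these cells in the Id1 and Id3 values was not tested.

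Id2, which is expressed in neurons of the cortical plate as well as in progenitors, was the single one of the 10 genes that passed as higher. It read 8.52, 8.65, 8.96 and 10.41 at E12.5, 10.76, 11.57, 10.98 and 10.64 at E15.5, and 11.63, 11.75, 11.63 and 11.19 at E18.5. Every later array stood above every E12.5 array, E15.5 and E18.5 overlapped, and E12.5 replicate 4 lay well above the other arrays of its stage. Id2 was 3.60-fold higher at E15.5 relative to E12.5 (log2 fold change 1.85, SE 0.34, adjusted p = 0.000437) and 5.32-fold higher at E18.5 relative to E12.5 (2.41, SE 0.34, adjusted p = 2.17e-05). At E18.5 versus E15.5 the value was 0.56 (95% interval -0.17 to 1.30, adjusted p = 0.181). The methods' t-test did not call the first of these (adjusted p = 0.0217).

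Both other Id2 probes rose as well. The second brightest read 7.07, 7.25, 7.02 and 8.08 at E12.5, 8.86, 9.16, 8.89 and 8.63 at E15.5, and 9.95, 9.99, 9.19 and 9.61 at E18.5. Its 3 stages did not overlap, and it passed in both intervals, with log2 fold changes of 1.53 (SE 0.23, adjusted p = 8.74e-05) and 0.80 (SE 0.23, adjusted p = 0.00949). The third probe gave 1.49 (SE 0.41, adjusted p = 0.00739) and 0.70 (SE 0.41, adjusted p = 0.171). On all 3 probes E12.5 replicate 4 was the highest array of its stage.

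Without that array, Id2 rose by 2.27 at E15.5 against E12.5 (SE 0.20, adjusted p = 8.59e-07) and by 2.84 over the whole period (SE 0.20, adjusted p = 3.47e-08). The difference between its intervals was then -1.71 (SE 0.33, adjusted p = 0.00156), a slower rise after E15.5, where with all arrays it was -1.28 (SE 0.59, adjusted p = 0.118). On E12.5 replicate 4, the 3 Id2 probes lay 74.9%, 54.7% and 73.7% of the way toward E15.5, and Id3 lay 27.2% of the way. The brighter and the dimmer probe lay at 4.07% and 65.4% for Bmpr1a, at 31.1% and 42.4% for Bmpr1b and at 10.6% and 30.9% for Id4, so probes of 1 gene differed. No position is given for Bmp4 and Bmp7, which were undetected on most or all E15.5 arrays. Neuronal and interneuron markers were also raised there. The neuronal markers summed to 15165 on that array, with 7391 to 8874 on the other E12.5 arrays. Interneuron markers, of which 6 of 7 were tested, summed to 903 there and to 143 to 155 on the others of its stage, and the later sums were 1889 to 2901 (E15.5) and 5383 to 6205 (E18.5). Their part in the Id2 values was not tested.

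**Figure D3:**
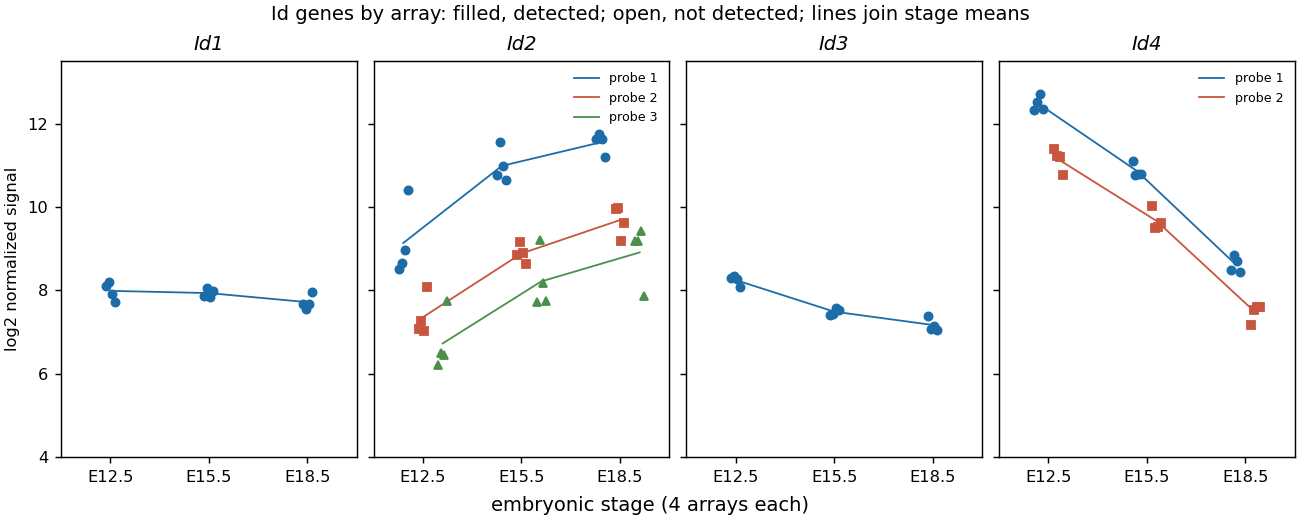
Log2 normalized signal of each tested probe of Id1, Id2, Id3 and Id4 on the 12 arrays, by stage, with lines through stage means. Both Id4 probes step down 2 times, all 3 Id2 probes step up with E12.5 replicate 4 above its stage (10.41 on the brightest probe), and Id1 stays between 7.56 and 8.20.

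The rest of the pathway was read from 4 lists of ligands, receptors, antagonists and SMAD regulators. Of all tested genes, 31.5% were higher and 34.4% lower at E18.5 relative to E12.5, and the median log2 fold change was -0.069. Of 9 further BMP ligands, 2 were tested, the others being undetected on all arrays or without a probe. Bmp3, an atypical ligand that opposes other BMPs, was higher at E18.5 relative to E12.5, by at least 1.26-fold (means 6.12 ± 0.26 and 4.83 ± 0.34, adjusted p = 1.44e-05), with detection on 4 arrays at each later stage and 0 at E12.5. The other tested ligand passed no test over that period.

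Of 8 other receptors and co-receptors, 7 were tested, and 5 were higher and 1 lower at E18.5 relative to E12.5, beside 31.5% and 34.4% of all tested genes, with a median log2 fold change of 1.08. Acvr2a, a type II receptor, averaged 7.81 ± 0.20 at E18.5 and 6.15 ± 0.28 at E12.5 (log2 fold change 1.66, SE 0.22, adjusted p = 1.12e-05), a rise that came after E15.5. Acvr2b, its close relative, went the other way, with 10.49 ± 0.09 at E18.5 and 12.08 ± 0.23 at E12.5 (-1.59, SE 0.12, adjusted p = 3.25e-08). Rgmb, a membrane-anchored BMP co-receptor, spanned 8.15 to 8.51 at E18.5 and 6.87 to 7.22 at E12.5 (1.31, SE 0.10, adjusted p = 7e-08).

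Of 13 antagonists and modulators, 8 were tested, and at E18.5 against E12.5 3 were higher and 4 lower, beside the 31.5% and 34.4% of all tested genes, with a median log2 fold change of -0.06 (-0.12 with undetected genes at their bound). Fst, which encodes follistatin, was higher at E18.5 relative to E12.5, by at least 1.78-fold (means 6.62 ± 0.19 and 5.24 ± 0.16, adjusted p = 1e-07). Chrd, which encodes the BMP-binding protein chordin, rose by 1.04 (SE 0.21, adjusted p = 0.000521). Sostdc1, a secreted BMP and Wnt antagonist, had a mean of 6.40 ± 0.23 at E18.5 and 7.58 ± 0.50 at E12.5 (-1.18, SE 0.28, adjusted p = 0.00156). Among the E15.5 arrays it was highest on replicate 4.

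Of 9 SMADs and regulators, 4 were tested, and over the whole period 2 were lower and 0 higher, beside 34.4% and 31.5% of all tested genes, so this count of 4 shows little. Smad6, an inhibitory SMAD that BMP signaling itself induces, was at least 1.85-fold lower at E18.5 relative to E12.5 (means 5.28 ± 0.16 and 6.50 ± 0.21, adjusted p = 9.07e-07). Tob1, which binds BMP SMADs and damps their activity, fell by 0.48 (SE 0.11, adjusted p = 0.00105), and by 0.79 at E18.5 against E15.5 alone (SE 0.11, adjusted p = 3.16e-05).

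Of 6 further BMP targets, 4 were tested, and 4 were lower at E15.5 relative to E12.5, beside 21.6% of all tested genes. At E18.5 relative to E12.5 3 were lower, beside 34.4%, with a median log2 fold change of -2.66 over the whole period (-2.16 with undetected genes at their bound). Msx1, a homeobox gene of the dorsal midline, was at least 8.96-fold lower at E18.5 relative to E12.5 (means 5.39 ± 0.09 and 8.78 ± 0.55, adjusted p = 1.62e-08). Lmx1a, which marks the roof plate and cortical hem, was at least 4.08-fold lower (means 4.60 ± 0.03 at E18.5 and 7.64 ± 0.45 at E12.5, adjusted p = 2.26e-08). Hey1, a bHLH repressor also driven by Notch, was 4.89-fold lower (9.75 ± 0.08 at E18.5 and 12.04 ± 0.12 at E12.5, adjusted p = 2.15e-10). Msx1 and Lmx1a were lowest on replicate 4 among the E12.5 arrays and highest on replicate 4 among the E15.5 arrays, as the sum of the choroid plexus and midline markers was.

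**Figure D4:**
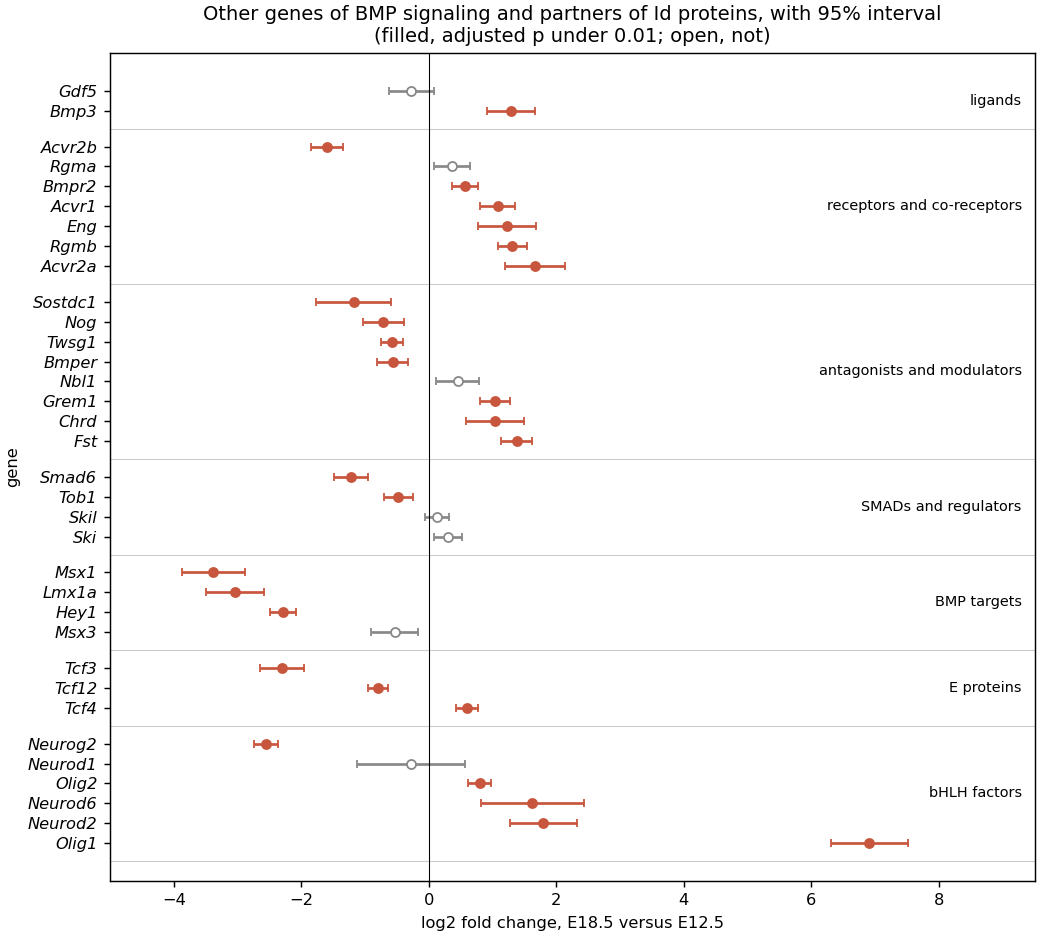
Log2 fold change at E18.5 versus E12.5 of the tested genes of 7 lists of BMP signaling and Id partners, with 95% intervals and filled symbols for an adjusted p under 0.01 in limma. The receptors lie mostly to the right and the BMP targets to the left, and genes undetected at 1 stage, or detected on 1 array of it as Olig1 was at E12.5, are drawn at their fitted value, which is no measured size.

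Among the proteins that Id proteins bind, all 3 E proteins were tested. Tcf3, which encodes the E proteins E12 and E47, spanned 5.91 to 6.11 at E18.5 and 7.76 to 8.66 at E12.5 (log2 fold change -2.30, SE 0.16, adjusted p = 1.89e-08). Tcf12, which encodes HEB, fell by 0.80 (SE 0.07, adjusted p = 4.07e-07). Tcf4, which encodes E2-2, rose by 0.60 (SE 0.08, adjusted p = 1.27e-05), with arrays at 14.02 to 14.25 at E18.5 and 13.46 to 13.62 at E12.5.

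Of 8 proneural and other bHLH factors, 6 were tested, and 4 were higher and 1 lower at E18.5 relative to E12.5, beside 31.5% and 34.4% of all tested genes. Neurog2, the proneural factor of cortical progenitors, was at 8.94 ± 0.10 at E18.5 and 11.49 ± 0.04 at E12.5 (-2.55, SE 0.09, adjusted p = 6.13e-11), with the fall after E15.5. Neurod2, a factor of differentiating excitatory neurons, rose by 1.80 (SE 0.24, adjusted p = 1.37e-05), the rise coming before E15.5. Olig1, a factor of the oligodendrocyte lineage, was at 12.09 ± 0.07 at E18.5 and 5.18 ± 0.50 at E12.5 (adjusted p = 1.71e-10), where it was detected on 1 array, so no fold is given.

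The likeness of patterns was measured as the root mean square difference in log2 level over the 12 arrays, after each probe was centred on its mean, and it is given as a description. Among the 45 pairs of the 10 genes, Bmpr1a and Bmpr1b were nearest (0.17), followed by Bmpr1a and Id3 (0.18) and by Bmpr1b and Id3 (0.19) with Smad5 and Id1 (0.19). Bmp4 and Bmp7 differed by 0.31, with Bmp4 below detection at both later stages, and Id2 and Id4 were farthest apart (2.62). All of these values share the same 12 arrays.

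Outside the 10 genes, 7594 genes detected on all arrays were candidates. Nearest to Id4 were Sp5 (0.13), Kif15 (0.16) and Gli3 (0.19), and nearest to Id2 were Gpm6a (0.23), Dtx1 (0.23) and Taok3 (0.24). Bmp4 lay nearest to Ccnd1 (0.28), Arhgap12 (0.30) and Mlf1 (0.30), though its levels from E15.5 on were below detection, so these distances rest in part on background. Bmp7, itself near the floor there, lay nearest to Vegfc (0.19), Smad3 (0.19) and Mlf1 (0.20). The genes nearest to Id3 were Set, Tmem216 and Nup62, at 0.09 to 0.10. For Bmpr1a they were Ehbp1, Sfr1 and Zbtb26 (0.10 to 0.12), and for Bmpr1b Pno1, Ddx51 and Flrt3 (0.13 to 0.14). The flatter Smad1, Smad5 and Id1 had neighbours at 0.07 to 0.09, namely Polr3k, Rbak and Rheb for Smad1, Mcfd2, Pip5k1a and Men1 for Smad5, and Psmg3, Bub3 and Zfp429 for Id1.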

How the data were processed

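Cortical RNA was labeled with biotin and hybridized to 12 arrays. The authors deposited bead signal intensities on a linear scale, not normalized, each with its detection p-value. They also deposited log2 values, made by the authors, which equal the log2 signals after quantile normalization (largest difference 5.00e-09). The submitters' notes name lumi, with no version or setting. All columns were mapped to samples (0 left over). Genes were named from the platform annotation, in which 34885 probes have 1 symbol, 18 have several and 10378 have none.

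Signals were corrected with limma 3.58.1 in R 4.3.3 (neqc, normexp by detection p-value, offset 16), quantile normalized and taken to log2. Probes detected (p-value under 0.01) on any array, 43.4% of all, entered a linear model with a mean per stage over the 12 arrays. Adjusted p-values are from limma with Benjamini-Hochberg adjustment over all tested probes within each comparison. A gene passed at an adjusted p under 0.01, and the 2-fold minimum was applied separately. A gene undetected on every array of a stage has a bound only, in which each dim array counts at its lowest detected signal or at the probe's own level, whichever is higher. The procedure was tested on simulated data.

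The genes, the 7 pathway lists (56 genes) and the 9 marker lists were chosen with earlier results of these data known. Named are all probes of the 10 genes, up to 3 genes per list with the largest change at E18.5 versus E12.5 among those that passed (all 3 E proteins), and the 3 nearest genes by pattern. Alternatives were the authors' values, median scaling, no background correction, cyclic loess, other detection filters, robust estimation with an intensity trend, averaged probes, array weights, fits restricted to a pair of stages, a replicate block, the methods' t-test, and leaving out each array. The fit without both replicate 4 arrays was chosen after seeing the data.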

Additional observations from a re-analysis of the deposited data

Results flagged for a closer look

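Over the 19 tested probes and 3 stages, 57 groups of 4 arrays were screened for a value far from the others of its stage (Dixon's test at 95%, which chance passes in about 1 of 20 groups), and 3 were found, none on E12.5 replicate 4. Bmp7 read 5.34 on E18.5 replicate 3, below the 5.74 to 5.79 of the other E18.5 arrays, and it was not detected there. The third Id2 probe read 7.86 on E18.5 replicate 4, against 9.17 to 9.41 on the others, while the brightest Id2 probe on that array was at 11.19, the lowest of its stage too. The brightest Id4 probe read 11.10 on E15.5 replicate 1, with the others at 10.78 to 10.79, and the second Id4 probe was highest on the same array at 10.03.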

How the results depend on the processing

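The 17 comparisons that one of the 10 genes passed were recomputed under 25 settings. Of 425 values, 422 kept their direction and side of the threshold, 3 no longer passed and 0 changed sign. The 3 were Id2 at E15.5 versus E12.5 under the methods' t-test, which left 0 genes higher, and Smad5 at E18.5 under median scaling in both comparisons. Median scaling left 1 gene lower at E18.5 versus E15.5 (Id4), and averaging the probes of a gene gave 4, with Bmpr1a and Id3 added to the 2. Leaving out single arrays gave 2 to 3 there and 7 to 8 lower at E18.5 versus E12.5. Smad1 joined Id2 as the second higher gene at E18.5 versus E12.5 under median scaling, cyclic loess and array weights (2 genes each).

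The number of genes whose intervals differed was 2, of which Bmp4 was undetected from E15.5 on. The number became 1 with no detection filter, 4 with array weights and 4 without both replicate 4 arrays. Other settings gave 3, among them no background correction, cyclic loess and the authors' values, with Bmpr1b added. Leaving out single arrays gave 1 to 4, with 4 without E12.5 replicate 4 (Bmpr1b and Id2 added) and 1 without E15.5 replicate 1 or 3. Over all probes that count was 2330 to 4594 with single arrays left out. Values near 0 changed sign without passing. Under median scaling they were 0.0054 for Smad5 and 0.086 for Id1 at E15.5 versus E12.5, and 0.059 for Bmpr1b at E18.5 versus E15.5. Id1 at E15.5 versus E12.5 ranged over -0.15 to 0.017 with arrays left out, the highest without E12.5 replicate 2. The Smad1 difference between intervals was 0.051 under cyclic loess and -0.15 to 0.067 with arrays left out, the highest without E15.5 replicate 2.

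At least 2-fold, 2369, 2328 and 5550 probes were called at E15.5 versus E12.5, E18.5 versus E15.5 and E18.5 versus E12.5. Without background correction there were 1147, 1188 and 3476, and with the authors' values 1143, 1181 and 3462. Averaging the probes of a gene gave 1544 in the first. The authors' values also have no background correction, and averaging leaves fewer features to test.

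Arrays with the same replicate number did not deviate together (r of -0.33 to 0.27 over 12 pairs, and -0.47 to 0.38 over 36 pairs of different number), and 3 of 12 arrays correlated best with their own number, so the samples share only a number. With the replicate block, 6 genes were lower and 1 higher at E15.5 versus E12.5, 2 and 0 at E18.5 versus E15.5, 7 and 1 at E18.5 versus E12.5, and 2 differed between intervals, and over all probes 7795, 7369, 11976 and 2741 passed. A chip block was not run, since neither headers nor labels name a chip. Levels at or near the detection floor limit Bmp4 and Bmp7 from E15.5 on, the dim Smad5 probe at E18.5 and the dim Smad1 probes.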
